A study of Mus musculus with 3 samples.

Results

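The cells described here were plasmacytoid dendritic cells (pDC) of FLT3L cultures that held RNA of at least 2 of 6 genes, Apod, Lefty1, Klra17, Slamf9, Klrk1 and Kdr. FLT3L is the growth factor that drives dendritic cells out of bone marrow progenitors. A cell was a member when its barcode had at least 1000 unique molecular identifiers (UMIs, each standing for 1 captured RNA molecule), no fewer than 500 genes, no more than 10% mitochondrial UMIs, at least 2 UMIs of Siglech, at least 1 UMI of at least 2 of the 6 genes, and at most 1 UMI of the proliferation genes Mki67 and Top2a together. This gave 2603 members among 28903 kept barcodes. The members were thus chosen by measured RNA of these genes, and the levels of those genes in them are given as a description. All 3 libraries came from wild-type C57BL/6 cultures and were made with 3' droplet chemistry. The control library came from cells differentiated in 2 mM glutamine (1261 members of 10367 kept barcodes). A second came from cells differentiated in 50 µM glutamine (393 of 9649). The third came from cells that had 2 mM glutamine and 1 µM DON, 6-diazo-5-oxo-L-norleucine, a glutamine analogue that blocks glutamine-using enzymes (949 of 8887). The series concerns what glutamine does for type 1 conventional dendritic cells (cDC1), and pDC arise in the same cultures.

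Each condition was 1 library, so no difference between conditions has a replicate check and no test between them was possible. All intervals below are 95% intervals for counting error only: exact Poisson for expression, exact binomial (Clopper-Pearson) for shares and the log method for ratios of shares. Differences between cultures or mice are not in them. The libraries held 89340379, 92002827 and 87611658 UMIs in the order control, 50 µM glutamine and DON, the order used throughout. Of all barcodes, 22 were shared by control and 50 µM glutamine, 20 by control and DON, and 31 by both treated libraries. Subset cells had a median of 5782, 5498 and 6870 UMIs, so detection of a rare RNA was easiest in the DON library.

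pDC are dendritic cells that sense viral nucleic acids through endosomal Toll-like receptors and release type I interferon. The transcription factor TCF4 holds their identity, and in the mouse they carry the sialic acid receptor Siglec-H, encoded by Siglech. The 6 genes encode unlike proteins. Klra17 encodes Ly49Q, an inhibitory lectin-like receptor for MHC class I that marks peripheral pDC. Klrk1 encodes NKG2D, an activating receptor best known on natural killer (NK) cells, and Slamf9 encodes a SLAM family receptor. Apod encodes apolipoprotein D, a secreted lipocalin that carries small lipids. Lefty1 encodes a secreted antagonist of Nodal, a ligand of the TGF-beta family. Kdr encodes VEGF receptor 2, best known on endothelium.

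In GRCm38 coordinates from GENCODE vM21, Klrk1 (129610323 to 129623864, minus strand) and Klra17 (129831154 to 129876672, minus strand) lie on chromosome 6, in the NK gene complex. Slamf9 (172475358 to 172478575) and Lefty1 (180935022 to 180938400) lie on the plus strand of chromosome 1, Apod (31296192 to 31314808) on the minus strand of chromosome 16, and Kdr (75932827 to 75978458) on the minus strand of chromosome 5. Klra17 belongs to the Klra family of similar genes, so its counts are uncertain where reads could belong to another member. The members are split below by how many of Apod, Klra17, Klrk1 and Kdr they held beside Lefty1 and Slamf9. The promoters of Apod, Klrk1, Klra17 and Slamf9 are shown. That of Kdr was searched but is not printed, and no promoter sequence was available for Lefty1. Each run is 300 bases from RefSeq (GRCm38.p6), 5′ to 3′ on the gene's strand, from 250 bases before the start site to 50 after it. Capitals mark the E-box CANNTG, the motif that TCF4 and other E proteins bind, which reads the same on both strands.
Apod, chr16:31314759-31315058: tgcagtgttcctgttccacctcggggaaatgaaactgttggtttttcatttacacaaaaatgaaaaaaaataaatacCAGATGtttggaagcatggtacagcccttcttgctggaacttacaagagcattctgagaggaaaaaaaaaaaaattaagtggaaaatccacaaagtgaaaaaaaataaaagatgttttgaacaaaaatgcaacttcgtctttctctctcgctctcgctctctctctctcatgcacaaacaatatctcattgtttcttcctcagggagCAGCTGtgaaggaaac
Klrk1, chr6:129623815-129624114: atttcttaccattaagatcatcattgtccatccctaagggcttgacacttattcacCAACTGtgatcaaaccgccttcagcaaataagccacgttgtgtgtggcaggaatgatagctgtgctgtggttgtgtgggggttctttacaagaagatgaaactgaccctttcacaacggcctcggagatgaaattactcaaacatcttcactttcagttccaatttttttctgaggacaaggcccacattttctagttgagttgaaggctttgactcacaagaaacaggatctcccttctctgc
Klra17, chr6:129876623-129876922: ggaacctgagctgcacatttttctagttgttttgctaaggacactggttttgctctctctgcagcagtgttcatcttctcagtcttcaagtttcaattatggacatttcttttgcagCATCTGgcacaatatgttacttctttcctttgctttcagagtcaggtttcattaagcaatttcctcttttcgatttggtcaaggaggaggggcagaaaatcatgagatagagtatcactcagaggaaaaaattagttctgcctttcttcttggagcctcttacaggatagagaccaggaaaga
Slamf9, chr1:172475110-172475409: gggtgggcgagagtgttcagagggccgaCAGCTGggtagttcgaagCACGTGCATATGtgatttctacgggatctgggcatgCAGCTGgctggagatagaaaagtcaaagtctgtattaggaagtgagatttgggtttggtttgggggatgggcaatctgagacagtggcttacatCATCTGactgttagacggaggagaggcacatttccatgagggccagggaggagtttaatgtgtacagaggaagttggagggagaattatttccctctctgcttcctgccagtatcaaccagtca
The Slamf9 promoter held 5 E-boxes, of which CACGTG and CATATG stood directly side by side. Apod held 2, and Klrk1, Klra17 and Kdr held 1 each, as against 3 for Siglech. At least 1 E-box was in 72.2% of all 27018 promoters of this length, with a median of 1. GAGGAA or its complement TTCCTC, the core bound by PU.1 and Spi-B, occurred in 28.3% of all promoters. It was present 2 times in Apod and in Klra17, 1 time in Slamf9 and Siglech, and not in the Klrk1 or Kdr window. These are letter matches, not measured binding.

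Most pDC markers examined stood far above the other barcodes in the members. Siglech was at 1216, 1718 and 1248 CPM (CPM, the UMIs of a gene summed over the cells and scaled to a common total for each set) against 18.2, 17.8 and 18.8 CPM in kept barcodes with fewer than 2 Siglech UMIs, a gap that the rule itself set. The pDC gene Bst2, which encodes an interferon-induced tether of virus particles, was at 2820, 2530 and 2989 CPM in members against 460, 310 and 462 CPM in those other barcodes. Tcf4 was at 1399, 1586 and 1277 CPM against 184, 206 and 195 CPM. Ccr9, the gut-homing chemokine receptor of mature mouse pDC, was at 839, 857 and 1120 CPM against 16.97, 8.71 and 15.5 CPM. Ccr9 and Tcf4 thus stood above the other barcodes in each library. The gap was smaller for others: Cox6a2, a cytochrome c oxidase subunit found in pDC, was at 368, 440 and 308 CPM against 29.7, 381 and 49.2 CPM, and Ly6c2 at 626, 528 and 549 CPM against 170, 327 and 241 CPM. The gene for the DNA sensor Tlr9 was nearly undetected, at 1.62, 1.60 and 1.60 CPM, while that for the RNA sensor Tlr7 was at 47.0, 66.0 and 50.7 CPM.

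Because Klrk1 is also a gene of NK cells and Kdr of endothelial cells, markers of those cells were measured in the members. The 14 genes of a T, NK and innate lymphoid list summed to 5.82, 3.598 and 9.20 CPM, and Ncr1, Gzma, Eomes and Prf1 were at 0 in every library. The 10 endothelial markers summed to 110.5, 147.5 and 134.4 CPM, against 130, 193 and 145 CPM in non-cycling Siglech cells with none of the 6 genes. Of them Tek, Emcn, Cldn5 and Flt1 were at 0 in every library. Most of the sum was Pecam1, at 95.7, 133 and 122 CPM. Cdh5 was at 8.08, 4.80 and 7.74 CPM and Egfl7 at 5.17, 7.20 and 3.73 CPM. The 10 stromal markers summed to at most 0.431 CPM. Marker RNA of other myeloid cells was present in each library. The cDC1 list summed to 310, 203 and 185 CPM, the mature dendritic cell list to 415, 275 and 339 CPM, and the neutrophil list to 642, 1126 and 776 CPM. Scrublet, which scores barcodes against simulated doublets, marked 11.8%, 6.62% and 5.90% of the members. They were kept, and results that move without them are named.

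The subset made up a smaller share of the 50 µM glutamine culture than of the other 2. Of the control barcodes kept, 12.2% (11.5 to 12.8) were members. The share was 4.07% (3.69 to 4.49) in the 50 µM glutamine library, and 10.7% (10.04 to 11.3) in the DON library. Relative to control the share was 0.335 times (0.30 to 0.374) for 50 µM and 0.878 times (0.811 to 0.95) for DON. Non-cycling Siglech cells as a whole, members or not, were 29.8%, 20.7% and 30.1% of kept barcodes. Within them the subset was 40.9%, 19.7% and 35.5%, which is 0.482 times (0.437 to 0.531) and 0.868 times (0.812 to 0.928) the control share. A low number at 50 µM was not particular to members. Non-cycling Siglech cells with Ccr9 RNA outside the subset were 1256, 626 and 998 of the 10367, 9649 and 8887 kept barcodes. Those with Ly6d RNA and without Ccr9 were most numerous at 50 µM, at 285, 626 and 372.

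Since the rule counts detected RNA, the shares were taken again after every barcode was thinned to 2000 UMIs, which left out 306, 362 and 197 shallower barcodes. Members were then 2.80%, 1.15% and 1.94% of kept barcodes and 13.7%, 7.02% and 9.60% of non-cycling Siglech cells. Ccr9, which is not in the rule, was detected in 70.3%, 45.0% and 65.7% of those Siglech cells, also lowest at 50 µM. At equal depth the DON share of Siglech cells was 0.699 times that of control, a lower ratio than at full depth. The share at 50 µM remained the lowest under each alternative that was run. With at most 5% mitochondrial UMIs the ratio to control among kept barcodes was 0.260 at 50 µM. Cells rich in S100a8 and S100a9 RNA and without Siglech, which should not be pDC, passed the 2-gene condition in 3 of 285, 1 of 349 and 2 of 309 cases. After thinning 0 of 205, 0 of 244 and 1 of 261 passed. For the thinned set Siglech was read in the thinned counts, so cells with Siglech RNA at full depth could be among them. Those cells had a median of 3906, 3851 and 4637 UMIs before thinning. For the first 2 libraries a count of 0 leaves room for 1.46% and 1.23%.

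**Figure D1:**
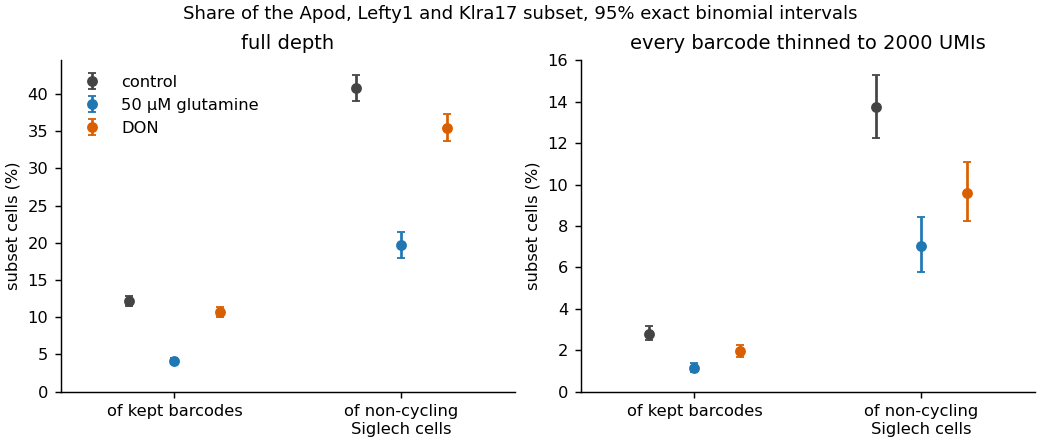
Subset cells as a percent of kept barcodes and of non-cycling Siglech cells (y axis) in the 3 libraries, at full depth on the left and after thinning to 2000 UMIs on the right; points are single libraries and bars are 95% exact binomial intervals. The 50 µM glutamine library is the lowest in each of the 4 sets, at 4.07% against 12.2% in control for kept barcodes at full depth.

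The number of the 6 genes per cell showed no gap at the threshold. Among non-cycling Siglech cells, 757, 967 and 835 cells had none of the genes, 1067, 636 and 890 had 1, and 740, 239 and 547 had 2. Those with 3 were 324, 102 and 256, and all 6 were found in 14, 5 and 4 cells. Just outside the threshold, cells with 1 gene had 67.6 CPM of Lefty1 and 10.9 CPM of Apod in control, against 143 CPM and 72.0 CPM in members. The rule leaves out cycling cells, and of the 839, 1716 and 1245 Siglech cells with over 1 UMI of Mki67 and Top2a, 22.2%, 9.79% and 16.5% had 2 or more of the genes. After thinning these were 0 of 146, 4 of 454 (0.881%) and 1 of 241 (0.415%), too few to read an order from.

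The 6 genes did not all follow the treatments. In thinned non-cycling Siglech cells Lefty1 was detected in 18.9% (17.2 to 20.7) of control cells, 9.25% (7.84 to 10.8) at 50 µM glutamine and 13.7% (12.2 to 15.4) with DON. Slamf9 was detected in 21.3% (19.6 to 23.2), 12.6% (11.0 to 14.4) and 16.8% (15.0 to 18.6). For both genes the 3 intervals did not overlap, and control was the highest and 50 µM the lowest. Klra17 was detected in 8.33% (7.17 to 9.60), 3.67% (2.79 to 4.74) and 5.85% (4.80 to 7.05), in the same order.

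Apod and Klrk1 differed less between the libraries. Apod was detected in 4.58% (3.71 to 5.57) of control cells, 4.20% (3.25 to 5.33) at 50 µM and 5.28% (4.28 to 6.43) with DON. Klrk1 was detected in 6.57% (5.54 to 7.73), 6.69% (5.49 to 8.06) and 5.45% (4.44 to 6.62). At 50 µM the share relative to control was 0.917 times (0.672 to 1.25) for Apod and 1.02 times (0.794 to 1.30) for Klrk1, with overlapping intervals, as against 0.489 times (0.408 to 0.587) for Lefty1 and 0.590 times (0.505 to 0.690) for Slamf9. Kdr was at 4.33%, 2.95% and 3.69%, and 0.681 times (0.479 to 0.969) the control share at 50 µM. With DON the ratios were 1.15 times (0.873 to 1.53) for Apod and 0.727 times (0.628 to 0.843) for Lefty1. As shares of all kept barcodes the ratios at 50 µM were 0.738 times (0.538 to 1.01) for Apod, 0.819 times (0.634 to 1.06) for Klrk1 and 0.394 times (0.325 to 0.476) for Lefty1.

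**Figure D2:**
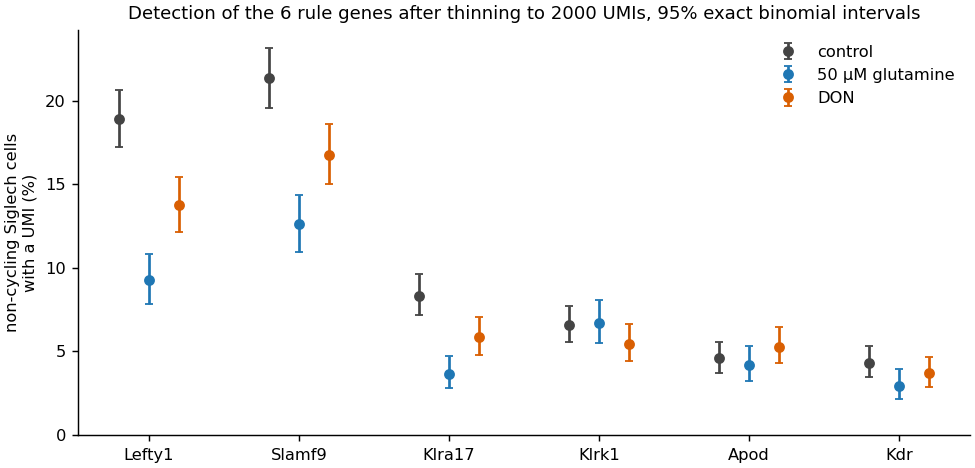
Percent of non-cycling Siglech cells with at least 1 UMI of each of the 6 genes after thinning to 2000 UMIs (y axis), by library; bars are 95% exact binomial intervals. Lefty1 falls from 18.9% in control to 9.25% at 50 µM glutamine, while the intervals of Apod and of Klrk1 overlap in all 3 libraries.

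Background levels were read in 2 kinds of cells, again after thinning. The S100a8 and S100a9 cells lacked Siglech in the thinned counts only, while the Xcr1 and Clec9a cells lacked it at full depth too. In the S100a8 and S100a9 cells, Lefty1 was found in 1 of 205, 0 of 244 and 0 of 261 cells, and Apod in none. Klra17 was found in 3.902%, 3.69% and 3.07% of them, as high as in Siglech cells at 50 µM glutamine. Ly49Q is also known from neutrophils, so these cells need not lack Klra17. In control cells with Xcr1 and Clec9a RNA and no Siglech, which mark cDC1, Klra17 and Lefty1 were in 0 of 417 cells, a count that leaves room for 0.719%. Klrk1 was in 6.47% (4.31 to 9.28) of those cells, close to its 6.57% in Siglech cells. With DON it was in 7 of 83 (8.43%) against 5.45%, and at 50 µM in 1 of 54 (1.85%) against 6.69%. The Xcr1 and Clec9a cells had a median of 11127 UMIs before thinning, against 5305 in the Siglech cells.

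The genes were found together unequally. In thinned non-cycling Siglech cells the number of cells with both genes of a pair was divided by the number that the separate shares would give. Over the 15 pairs the median of this ratio was 1.32, 1.58 and 1.31, and it was above 1 for 15, 15 and 11 pairs. Apod and Klrk1 had ratios of 2.27, 3.27 and 4.54, Klrk1 and Kdr 2.74, 2.66 and 2.82, and Apod and Klra17 2.17, 2.13 and 3.31. Lefty1 and Klrk1 were near 1, at 1.14, 1.17 and 0.985. The genes did not fall into cleanly separate sets. Lefty1 and Slamf9 had ratios of 1.22, 1.58 and 1.23, while Apod and Lefty1 had 1.58, 1.35 and 1.41, Apod and Slamf9 1.30, 2.36 and 1.22, and Slamf9 and Kdr 1.32, 2.47 and 0.827. Apod also avoided Ly6d, a gene of lymphoid progenitors and of pDC derived from them, with ratios of 0.599, 0.453 and 0.432. Klrk1 and Ly6d gave 0.807, 0.620 and 0.502, while Lefty1 and Ly6d gave 1.00, 1.09 and 1.04. The pairs of thinned rare genes rest on few cells, and the points share library and depth.

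**Figure D3:**
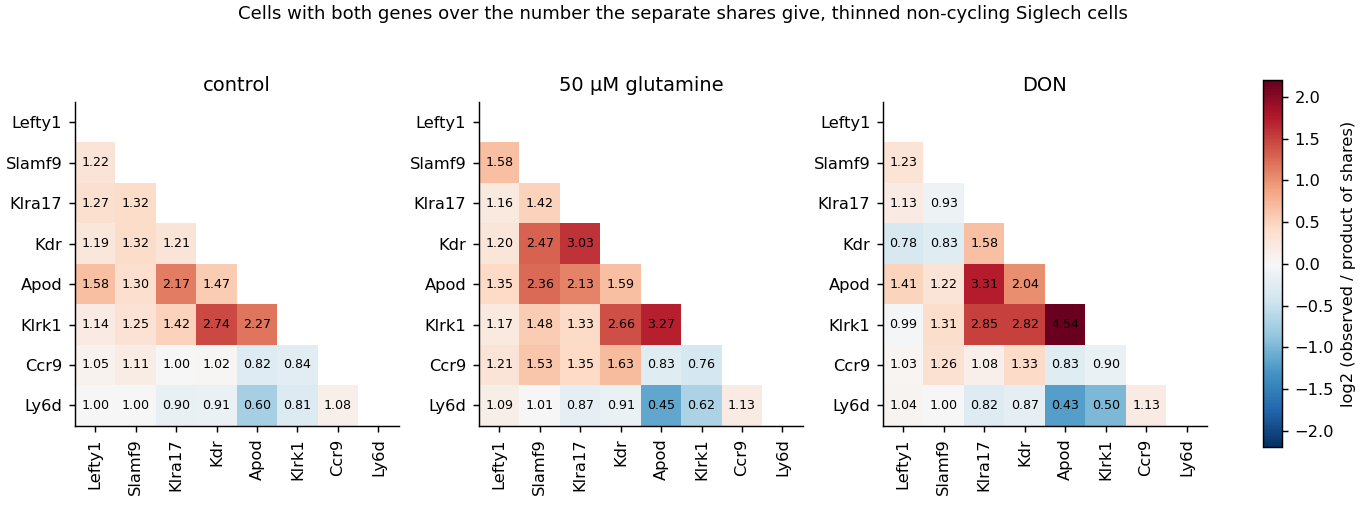
Number of thinned non-cycling Siglech cells with both genes, divided by the number given by the product of the separate shares, for each pair of the 6 genes with Ccr9 and Ly6d; the ratio is printed in each square, the colour is its log2, and each panel is 1 library. Apod with Klrk1 reaches 2.27, 3.27 and 4.54, and Apod with Ly6d lies below 1 in all 3 libraries.

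A split made after the data had been seen set apart members with 2 or more of Apod, Klra17, Klrk1 and Kdr (430, 161 and 383 cells) from members with Lefty1 and Slamf9 and none of those 4 (263, 61 and 173 cells). The largest group was neither of these: the remaining 568, 171 and 393 members (45.0%, 43.5% and 41.4%) had 1 of the 4 together with Lefty1 or Slamf9. The first kind also held Lefty1 and Slamf9 RNA, at 115 and 173 CPM in control. The first kind was 34.1%, 41.0% and 40.4% of the members and the second 20.9%, 15.5% and 18.2%. The kinds differed in depth, with a median of 6266, 5721 and 7376 UMIs in the first and 5252, 4971 and 6208 in the second. Scrublet marked 57, 9 and 26 cells of the first kind and 22, 5 and 5 of the second.

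The first kind made up 4.15% (3.77 to 4.55), 1.67% (1.42 to 1.94) and 4.31% (3.897 to 4.75) of kept barcodes. Relative to control this was 0.402 times (0.336 to 0.481) and 1.04 times (0.908 to 1.19), and after thinning 0.624 times (0.410 to 0.951) and 1.00 times (0.689 to 1.45). Cells with Lefty1 and Slamf9 only were 2.54%, 0.632% and 1.95% of kept barcodes. Their ratios to control were 0.249 times (0.189 to 0.329) and 0.767 times (0.635 to 0.928), and after thinning 0.297 times (0.181 to 0.486) and 0.619 times (0.420 to 0.911). Among thinned non-cycling Siglech cells the ratios at 50 µM and with DON were 0.776 times (0.512 to 1.18) and 1.01 times (0.697 to 1.46) for the first kind. For the second they were 0.369 times (0.226 to 0.602) and 0.623 times (0.425 to 0.914). With DON the intervals of the kinds overlapped at both depths. At 50 µM they were apart at full depth only, and overlapped after thinning. Whether the kinds differ in their ratios was not tested.

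Within each library, the 2 kinds of members differed by 2-fold or more in all 3 libraries in 35 genes that were higher in the first kind and 52 that were lower, which is 0.64% and 0.95% of the 5472 genes of at least 20 CPM. All folds here and below are ratios of CPM with 5 CPM added. The contrast follows the choice of cells and is a description. Cells with 2 or more of Apod, Klra17, Klrk1 and Kdr had more RNA of Klf4, a zinc finger transcription factor, at 138, 204 and 179 CPM against 42.6, 30.2 and 53.6 CPM. Fcgrt, which encodes the neonatal Fc receptor that recycles IgG, was at 305, 266 and 280 CPM against 74.6, 27.2 and 96.0 CPM. Ly6c2, a surface protein of mature pDC and monocytes, was at 902, 711 and 749 CPM against 269, 205 and 259 CPM.

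Ifitm1, Ifitm2 and Ifitm3, similar genes whose products block virus entry, also stood higher in those cells. Ifitm3 was at 937, 820 and 1009 CPM against 368, 193 and 328 CPM. Il6st, the gp130 receptor chain of the interleukin-6 family, was at 135, 187 and 146 CPM against 47.4, 51.4 and 54.5 CPM. Ms4a6c was at 504, 572 and 672 CPM against 172, 193 and 242 CPM. Gcnt2, Tent5a, Amz1 and Avpi1 completed the 12 genes named on this side.

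On the other side stood genes of the classical pDC and of its lymphoid precursors. Ly6d was at 718, 636 and 474 CPM in the first kind against 2354, 3009 and 2128 CPM in cells with Lefty1 and Slamf9 only. Cox6a2 was at 128, 265 and 172 CPM against 736, 940 and 657 CPM. Cmah, the enzyme that hydroxylates sialic acid, was at 22.5, 50.6 and 18.5 CPM against 140, 233 and 139 CPM. Clec12a, an inhibitory lectin receptor, was at 75.4, 83.4 and 62.3 CPM against 204, 278 and 197 CPM. Havcr1, Serinc5, Rpgrip1, Hs3st1, Cd200, Smim5, Timp2 and Them6 were the others named here. Sirpa, the CD47 receptor, was also at 66.4, 69.3 and 59.3 CPM against 197, 196 and 151 CPM, a gene picked out after its values were seen.

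The first kind kept high levels of pDC genes while several of them were lower than in the second. Siglech was at 851, 1375 and 970 CPM against 1747, 2417 and 1973 CPM, Tlr7 at 30.9, 47.8 and 37.2 CPM against 78.8, 118 and 84.8 CPM, and Ccr9 at 604, 404 and 772 CPM against 1204, 1631 and 2071 CPM. Tcf4 was at 1231, 1500 and 1181 CPM against 1680, 1740 and 1563 CPM, and Bst2 at 2634, 2429 and 2777 CPM against 3294, 3112 and 3667 CPM. Of 31 measured pDC identity genes, 1 was at least 1.5-fold higher in the first kind in all 3 libraries and 11 were at least 1.5-fold lower, against 1.74% and 2.03% of all 9946 genes of at least 5 CPM. The list medians were -0.51, -0.51 and -0.60 on the log2 scale, and those of all genes -0.03, 0.01 and 0.00.

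Of 32 type I interferon response genes, 5 were higher and 0 lower in the first kind, beside 1.74% and 2.03% of all genes. The list medians were 0.15, 0.83 and 0.57. Of 15 MHC class II and costimulation genes, 2 were higher and 0 lower. The class II chain H2-Aa was not higher in the first kind, at 2433, 1665 and 1610 CPM against 2451, 1846 and 1769 CPM. Cd74, the invariant chain, was at 7766, 5445 and 5588 CPM against 7319, 5598 and 5729 CPM. A list of transitional dendritic cell markers, genes of cells that share features of pDC and of conventional cells, summed to 516, 751 and 469 CPM in the first kind against 367, 420 and 230 CPM in the second, and 2 of the 8 measured were higher. The cDC2 marker list summed to 1437, 1357 and 1675 CPM against 1074, 767 and 1024 CPM. Of its 10 measured genes 1 was higher and 1, Sirpa, was lower. The mature dendritic cell list summed to 342, 363 and 378 CPM against 322, 163 and 130 CPM. Of its 9 measured genes 0 were higher and 0 lower in all 3 libraries. The monocyte and macrophage list summed to 760, 1111 and 760 CPM against 642, 598 and 517 CPM. The cDC1 list was at 314, 189 and 180 CPM against 285, 187 and 182 CPM. The neutrophil list went the other way, at 216, 803 and 1128 CPM against 1232, 4151 and 1530 CPM. So did the B lineage list, at 506, 607 and 581 CPM against 810, 840 and 871 CPM. In all members, 412 of 498, 75 of 93 and 570 of 635 UMIs of the neutrophil gene Ngp came from 2 cells per library. The part of the listed markers in the difference was not tested. Without the barcodes marked by Scrublet the 35 genes became 62 and the 52 became 59.

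**Figure D4:**
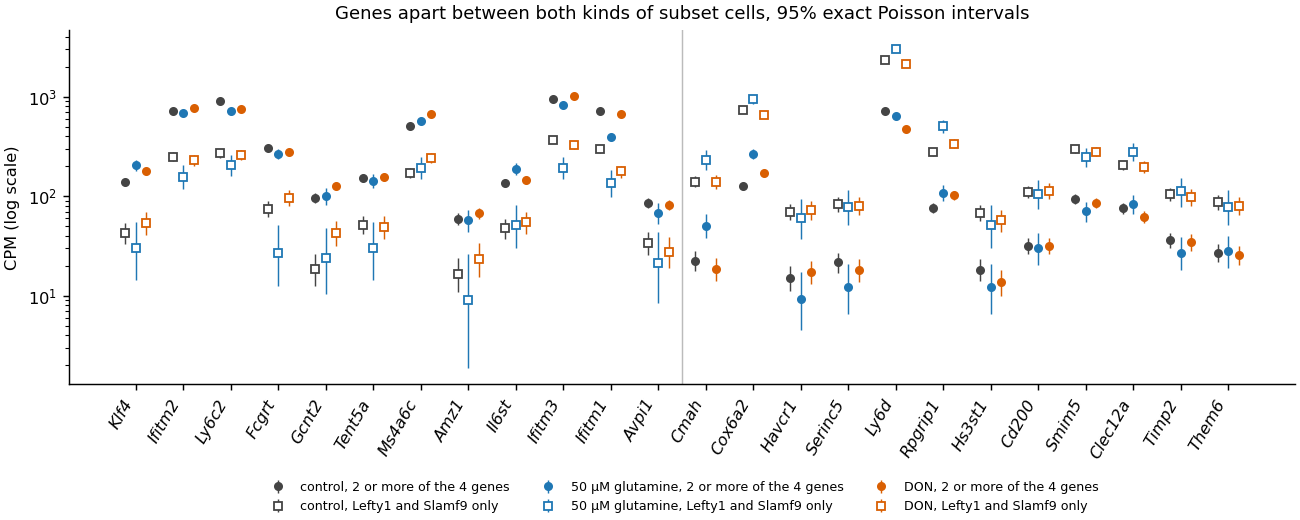
CPM on a log axis of the 12 genes named as higher and the 12 named as lower in members with 2 or more of Apod, Klra17, Klrk1 and Kdr (filled circles) against members with Lefty1 and Slamf9 only (open squares), by library; bars are 95% exact Poisson intervals. Ly6d lies at 718 CPM in the filled and 2354 CPM in the open set of the control library, and Ly6c2 at 902 and 269 CPM.

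When thinned cells were ranked by how many of the 6 genes they held, Ly6d and Ly6c2 changed stepwise. Ly6d was at 3015, 2605, 2333 and 1510 CPM in control cells with 0, 1, 2 and 3 or more of the genes. At 50 µM it was at 3545, 3015, 1606 and 455 CPM and with DON at 2914, 2398, 1627 and 171 CPM. Ly6c2 was at 397, 618, 728 and 1587 CPM in control, 256, 391, 659 and 1000 CPM at 50 µM, and 336, 414, 854 and 871 CPM with DON. Ly6d went down and Ly6c2 up at each step in every library. Ccr9, lower in the first kind than in the second, did not follow: it was at 1125, 1236, 1367 and 1058 CPM in control, 869.9, 1248, 1159 and 636 CPM at 50 µM, and 1353, 1789, 1593 and 886 CPM with DON. Siglech was at 1921, 2128, 2052 and 1856 CPM in control. The last step holds 52, 22 and 35 cells.

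Against non-cycling Siglech cells with none of the 6 genes, the members as a whole had less RNA of 16 S phase genes. At least 2-fold differences in all 3 libraries were found in 4 genes higher (0.0724% of 5526) and 10 lower (0.181%). The 4 were Fcgrt, Ffar4, Lag3 and Spint1, and the 10 were Pclaf, Mcm5, Prtn3, Stmn1, Mcm3, Hells, Cdca7, Mcm7, Bcl2 and Bex6. Fcgrt was at 180, 182 and 206 CPM in members against 67.0, 35.1 and 63.2 CPM. Mcm3, a subunit of the helicase that starts DNA replication, was at 23.4, 36.0 and 20.4 CPM against 62.7, 105 and 71.5 CPM. Stmn1, which loosens microtubules in dividing cells, was at 41.8, 105 and 52.0 CPM against 151, 265 and 209 CPM. Of 35 S phase genes, 16 were at least 1.5-fold lower in members and 0 higher, beside 0.768% and 0.436% of all 9641 genes of at least 5 CPM, and of 31 genes of G2 and M phase 6 were lower. Mki67 itself, which the rule limits, was still at 11.96, 28.9 and 18.6 CPM in thinned cells with none of the genes and at 6.52, 5.88 and 3.73 CPM in those with 2. Without any cell holding Mki67 or Top2a RNA the 10 lower genes became 4. The contrast also depends on the cells set against the members. Against non-cycling Siglech cells outside the subset with Ccr9 RNA, 0 of 5504 genes were at least 2-fold lower in members in all 3 libraries. In the same contrast 24 (0.436%) were higher. Against those with Ly6d and without Ccr9, 29 of 5579 (0.52%) were lower and 16 (0.287%) higher.

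Antigen presentation genes ran the other way in that contrast. H2-Aa, an MHC class II chain, was at 2433, 1613 and 1603 CPM in members against 1499, 999 and 995 CPM, and Cd74, the invariant chain, at 7438, 5144 and 5348 CPM against 4490, 3165 and 3231 CPM. Of 15 MHC class II and costimulation genes 3 were higher, beside 0.436% of all genes. The 29 measured inhibitory and activating surface receptors outside the rule had 3 higher members, Lag3, Slamf7 and Cd200r1, and 1 lower, Klrb1f. Cd200r1, the receptor for CD200, was at 81.0, 53.6 and 82.7 CPM against 38.6, 19.6 and 34.0 CPM. Isg15, an interferon-induced ubiquitin-like protein, was at 159, 128 and 183 CPM against 98.9, 77.9 and 107 CPM. Ly6d was lower, at 1464, 1337 and 1097 CPM against 2495, 2688 and 2321 CPM. Members were slightly deeper than cells with none of the genes, which had a median of 5262, 5340 and 6197 UMIs. Among thinned cells with 0, 1, 2 and 3 or more of the genes, H2-Aa was at 1709, 1815, 1904 and 1663 CPM in control. At 50 µM it was at 1112, 1434, 1606 and 2250 CPM and with DON at 1040, 1292, 1414 and 1329 CPM. Scrublet marked 8.06%, 1.86% and 3.95% of the cells with none of the genes, against 11.8%, 6.62% and 5.90% of members.

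In members, 50 µM glutamine came with less RNA of glycolytic enzymes and of genes induced by hypoxia factors. Relative to control, 42 genes were at least 2-fold lower (0.7% of 6003 genes of at least 20 CPM) and 20 at least 2-fold higher (0.333%). Under median-of-ratios scaling, which moved the median of all genes from 0.14 to 0.00 on the log2 scale, there were 66 lower and 11 higher. Ankrd37, a target of hypoxia-inducible factor, had the lowest ratio among the named genes, at 101 CPM (94.2 to 107) in control and 5.20 CPM (2.77 to 8.89) at 50 µM, with 38.4 CPM (34.1 to 43.1) under DON. Its RNA was found in 455, 12 and 188 members. Aldoc, an aldolase, was at 76.1 CPM (70.6 to 81.9), 6.00 CPM (3.36 to 9.89) and 44.8 CPM (40.1 to 49.9). After thinning its log2 ratio with DON was 0.35, the other direction.

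Of 17 glycolysis genes 13 were at least 1.5-fold lower at 50 µM and 1, Hk3, was higher, beside 2.13% and 4.75% of all 9234 genes of at least 5 CPM. The median of the list was -0.96, and that of all genes 0.14. Pgk1, phosphoglycerate kinase, was at 405 CPM (392 to 418) in control and 87.5 CPM (76.3 to 99.9) at 50 µM. Tpi1, triosephosphate isomerase, was at 141 CPM and 34.4 CPM, Pgam1, phosphoglycerate mutase, at 221 CPM and 99.1 CPM, and Slc16a3, a lactate exporter, at 20.4 CPM and 2.40 CPM. Of 21 hypoxia factor targets, 9 were lower and 0 higher, among them Egln3, an oxygen-sensing hydroxylase of those factors, at 18.1 CPM and 3.598 CPM. Mif, a cytokine gene of the same list, was at 623 CPM (607 to 639) and 145 CPM (130 to 160).

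The cells with none of the 6 genes gave like values side by side. There Ankrd37 was at 110 CPM in control and 3.30 CPM at 50 µM, and Pgk1 at 481 CPM and 115 CPM. In those cells 13 of 16 glycolysis genes were at least 1.5-fold lower, beside 274 of all 9400 genes, with a list median of -0.85. Both kinds of members also shared it: the glycolysis list summed to 4263 CPM in control and 1945 CPM at 50 µM in cells with 2 or more of Apod, Klra17, Klrk1 and Kdr, and to 3595 CPM and 1649 CPM in cells with Lefty1 and Slamf9 only. Under DON the sums were 3219 CPM and 2480 CPM.

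With DON, 7 genes were at least 2-fold lower in members (0.123% of 5682) and 1 was at least 2-fold higher (0.0176%). The library shares its control with the 50 µM comparison. Of 16 glycolysis genes 7 were at least 1.5-fold lower and of 21 hypoxia factor targets 10, beside 1.05% of all 8971 genes, and 0 were higher in either list, beside 0.223%. Pgk1 was at 239 CPM (228 to 250) and Tpi1 at 46.4 CPM with DON, against 405 CPM and 141 CPM in control. P4ha1, a collagen prolyl hydroxylase subunit, was at 55.8, 18.8 and 25.7 CPM in the 3 libraries. The list medians were -0.42 for glycolysis and -0.50 for the hypoxia factor targets, and that of all genes was 0.02. In cells with none of the 6 genes these medians were -0.46 and -0.52.

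MHC class II RNA was lower in both treated libraries than in control. Of 15 genes of the MHC class II and costimulation list, 8 were at least 1.5-fold lower at 50 µM and 7 with DON, and 0 were higher. Of all genes 2.13% and 1.05% were lower and 4.75% and 0.223% higher. H2-Aa was at 2433 CPM (2401 to 2465), 1613 CPM (1564 to 1664) and 1603 CPM (1575 to 1632). H2-Eb1, another class II chain, was at 1326, 731 and 744 CPM, and H2-Oa, a chain of the peptide-loading regulator H2-O, at 76.3, 25.6 and 46.9 CPM. Ifi30, a thiol reductase of antigen processing, was at 313, 146 and 309 CPM, lower at 50 µM alone. The control library was the highest for each of these 4 genes. It was also the highest in the sums of the cDC1 markers (310, 203 and 185 CPM) and mature dendritic cell markers (415, 275 and 339 CPM), cells rich in MHC class II, and in the share of marked doublets (11.8%, 6.62% and 5.90%). Without those doublets the log2 ratio of H2-Aa went from -0.59 to -0.41 at 50 µM and from -0.60 to -0.44 with DON, and after thinning the ratios were -0.10 and -0.41. The part of the cDC1 and mature cell RNA was not tested. In cells with none of the 6 genes the list had 6 and 4 lower members, and at 50 µM 274 of all 9400 genes were lower there.

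Id2, Naaa, Plbd1 and Ccl5 were lower in both treated libraries. Id2, an inhibitor of E proteins that cDC1 need, was at 140 CPM (133 to 148), 44.8 CPM (36.9 to 53.9) and 47.6 CPM (42.8 to 52.8). Naaa, a lysosomal amidase gene of the cDC1 list, was at 61.5, 18.4 and 25.1 CPM, and Plbd1, a phospholipase-like protein, at 80.3, 19.99 and 36.1 CPM. Ccl5, a chemokine gene, was at 390, 72.4 and 132 CPM and was found in 224, 30 and 56 members. Of its 3620, 181 and 988 UMIs, 689, 139 and 324 came from 2 cells in each library, and without them the levels were 316, 16.8 and 88.6 CPM. The sum of the cDC1 marker list, given above, was also below control in both treated libraries, but lowest with DON, as were Xcr1, at 11.4, 6.00 and 0.533 CPM, and Clec9a, at 9.80, 3.997 and 3.87 CPM. Of 8 measured cDC1 markers 4 were at least 1.5-fold lower at 50 µM and 5 with DON, and of 10 cDC2 markers 2 and 3. Of all genes 2.13% and 1.05% were that much lower. The cDC2 list summed to 1312, 1181 and 1468 CPM, highest with DON, where S100a4 and Cd7 were at 704 and 592 CPM against 554 and 498 CPM in control. The part of cDC1 RNA in these values was not tested. Without the marked doublets the log2 ratio of Ccl5 with DON went from -1.53 to -0.89 and that of Plbd1 at 50 µM from -1.77 to -1.17. After thinning Naaa with DON was at 0.89 in place of -1.15.

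The median of the cholesterol synthesis genes was below control at 50 µM and above it with DON, where 1 gene passed 1.5-fold. Of 24 measured genes, 5 were at least 1.5-fold lower and 0 higher at 50 µM, with a median of -0.25, beside 2.13% and 4.75% of all genes. With DON 1 was higher and 0 lower, with a median of 0.36, beside 0.223% and 1.05% of all genes. Fdps, farnesyl diphosphate synthase, was at 290 CPM (279 to 301), 188 CPM (172 to 206) and 415 CPM (400 to 430). Hmgcs1, HMG-CoA synthase, was at 154, 126 and 217 CPM, and Msmo1, a sterol oxidase, at 145, 128 and 210 CPM. DON was the highest library for each of these 3 genes, none of which was 1.5-fold above control. The cells with none of the 6 genes had medians of -0.40 and 0.29 for this list.

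Gsr, Txnrd1 and genes of S phase were higher at 50 µM. Gsr, glutathione reductase, was at 18.4 CPM (15.8 to 21.4), 51.2 CPM (42.7 to 60.8) and 23.1 CPM (19.8 to 26.8), and Txnrd1, thioredoxin reductase, at 23.9, 53.2 and 28.9 CPM. They were the 2 of 15 NRF2 targets at least 1.5-fold higher, as against 4.75% of all genes. Of 34 S phase genes 12 were higher and 0 lower at 50 µM, with a median of 0.49, while with DON 0 of 27 passed 1.5-fold in either direction. Stmn1 was at 41.8, 105 and 52.0 CPM, and Mcm6 at 26.9, 43.2 and 26.5 CPM. In cells with none of the 6 genes 18 of 35 S phase genes were higher at 50 µM, beside 427 of all 9400 genes. Cdk6, a G1 cyclin-dependent kinase, was at 26.9, 62.8 and 27.7 CPM, Nfkbid, an atypical inhibitor of NF-kB, at 20.4, 51.6 and 29.7 CPM, and Tex2 at 115, 247 and 150 CPM.

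Among genes of at least 50 CPM, Vmp1 and Vamp2 had the highest ratios at 50 µM, but each rested on a pair of cells. Of 337 Vmp1 UMIs 198 came from 2 cells, and of 358 Vamp2 UMIs 234. Without the 2 richest cells of each library the levels were 44.0 and 55.6 CPM for Vmp1 and 46.5 and 49.6 CPM for Vamp2 in control and at 50 µM. Ngp, a neutrophil granule gene named as higher with DON, had 570 of its 635 UMIs in 2 cells. It was at 9.26 CPM in control and 8.67 CPM with DON without them.

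Surface receptors changed in small numbers. Lilrb4a, an inhibitory receptor with a similar neighbouring gene, was at 20.6 CPM (17.8 to 23.7), 56.8 CPM (47.8 to 66.9) and 33.7 CPM (29.7 to 38.2). Cx3cr1, the fractalkine receptor, was the 1 gene at least 2-fold higher with DON, at 7.22 CPM (5.59 to 9.17), 23.98 CPM (18.3 to 30.9) and 21.2 CPM (18.04 to 24.8), and it was found in 56, 42 and 96 members. Its log2 ratio with DON was 1.10, and after thinning -0.44. Cd300a, an inhibitory receptor, was at 124, 191 and 188 CPM, and Cd33, a sialic acid receptor, at 63.6, 97.5 and 105 CPM. Cd244a, a SLAM family receptor, was lower, at 144, 68.8 and 89.0 CPM, and so was Siglecg at 50 µM, at 20.9, 7.99 and 14.5 CPM. Of 31 such receptors, 3 were at least 1.5-fold higher and 3 lower at 50 µM, beside 4.75% and 2.13% of all genes. With DON 2 of 30 were higher and 1 lower, beside 0.223% and 1.05%. Klrk1, whose level the rule conditions, is among the 3 higher at 50 µM.

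Other genes named as higher with DON were Lztfl1, at 177, 344 and 318 CPM, and Alox5, the 5-lipoxygenase of leukotriene synthesis, at 50.6, 59.6 and 82.6 CPM. Gcnt2, a glycan-branching enzyme, was at 60.8, 71.2 and 101 CPM, Klf4 at 96.3, 137 and 147 CPM, and Ms4a6c at 353, 421 and 531 CPM. Gcnt2, Klf4 and Ms4a6c are also 3 of the 12 genes that stood higher in members with 2 or more of Apod, Klra17, Klrk1 and Kdr, and that kind was 34.1% of members in control and 40.4% with DON. The part of this share in their values was not tested. None of the 5 reached 2-fold.

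**Figure D5:**
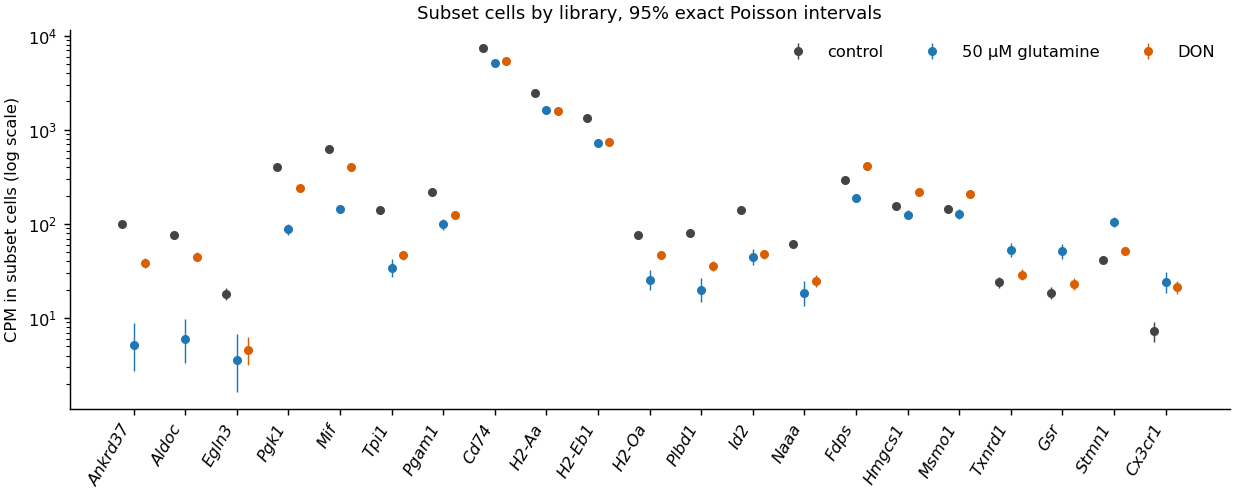
CPM on a log axis of 21 genes in subset cells of the 3 libraries, ordered from hypoxia and glycolysis genes through MHC class II, conventional dendritic cell and cholesterol genes to genes higher at 50 µM glutamine; bars are 95% exact Poisson intervals. Ankrd37 is at 101 CPM in control, 5.20 CPM at 50 µM glutamine and 38.4 CPM with DON, and Fdps is highest with DON at 415 CPM.

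Lists around the rule genes were also counted. A TGF-beta, Nodal and VEGF list that includes the rule genes Lefty1 and Kdr had 18 measured genes at 50 µM and 17 with DON. At 50 µM 1 was at least 1.5-fold higher and 1 lower, beside 4.75% and 2.13% of all genes. With DON 0 were higher and 1 lower, beside 0.223% and 1.05%. The higher gene was Acvr2b, an activin receptor, at 16.5, 32.0 and 21.6 CPM. The lower was Vegfa, a ligand of the receptor that Kdr encodes, at 5.71 CPM (4.28 to 7.47), 2.00 CPM (0.649 to 4.66) and 1.73 CPM (0.923 to 2.96), from 53, 5 and 13 UMIs. Of 14 lipid carriers and receptors, the list that holds Apod, 4 were lower at 50 µM, against 2.13% of all genes, among them Apoe at 47.0, 12.4 and 23.6 CPM and the cholesterol exporter Abcg1 at 97.9, 49.6 and 98.6 CPM. Within members Apod itself was at 72.0, 99.5 and 93.9 CPM and Lefty1 at 143, 106 and 125 CPM, levels that the rule conditions.

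Of 31 pDC identity genes in the members, 1 was at least 1.5-fold higher and 1 lower at 50 µM, beside 4.75% and 2.13% of all genes. With DON 0 passed in either direction, beside 0.223% and 1.05%. The higher gene was Cd209d, a lectin receptor, at 14.8, 38.0 and 11.6 CPM, and the lower was Upb1, a pyrimidine breakdown enzyme, at 90.4, 46.4 and 75.1 CPM. Of 21 measured genes in a list of transcription factors of pDC and related cells, 0 were higher, and 2 were lower at 50 µM and 4 with DON, beside 2.13% and 1.05% of all genes. The list medians were 0.18 and 0.03, the second -0.15 after thinning. Id2, given above, and Batf3, a factor that cDC1 need, at 15.0, 3.20 and 7.07 CPM, were lower in both. Ets1, at 19.5, 14.4 and 11.1 CPM, and Id3, at 14.9, 11.99 and 7.60 CPM, were lower with DON. Irf8, a transcription factor of pDC and cDC1, was at 2133, 2386 and 2038 CPM, and Irf7, the interferon regulator, at 148, 120 and 150 CPM. Of 28 type I interferon response genes 0 were higher and 3 lower at 50 µM, and 0 passed in either direction with DON. Isg20, an RNA exonuclease, was the lowest of these, at 30.7, 9.19 and 20.7 CPM.

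Of 18 ATF4 targets, genes of the amino acid response, 3 were higher and 1 lower at 50 µM, beside 4.75% and 2.13% of all genes, and 1 higher and 1 lower with DON, beside 0.223% and 1.05%. In cells with none of the 6 genes 7 of 18 were higher and 1 lower at 50 µM. Of all 9400 genes there, 427 were higher and 274 lower. Slc7a5, an amino acid exchanger, was at 18.3 CPM (15.7 to 21.3), 38.0 CPM (30.7 to 46.4) and 34.4 CPM (30.3 to 38.9). It was also the 1 gene of the glutamine uptake and use list that passed 1.5-fold upward in either treatment, of 21 and 20 measured. Asns, asparagine synthetase, was at 1.51, 4.40 and 0.8002 CPM from 14, 11 and 6 UMIs, too few to read a change from. Of 15 pyrimidine synthesis genes 1 was higher at 50 µM, and of 16 purine synthesis genes 0 passed in either direction in either treatment.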

How the data were processed

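Each library was measured by droplet single-cell RNA sequencing. Per the file headers the deposited values are raw UMI counts, by gene and barcode, written by Cell Ranger 6.0.0 after cell calling, while Cell Ranger 3.1.0 and mm10 stand in the submitters' processing notes, so the version is not settled. The annotation is not given in the sources used here. Of 32285 genes, 99.6% have an identifier in GENCODE vM21.

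The members, gene lists and comparisons were chosen with earlier results of these data known. UMIs of all cells in a set were added up and scaled to CPM. Ratios are log2 of CPM with 5 CPM added, and calls need 20 CPM (2-fold) or 5 CPM (1.5-fold, lists). Members were also compared with non-cycling Siglech cells holding 0 of the 6 genes. Scrublet (scanpy 1.11.5, expected rate 0.08) marked 8.62%, 4.97% and 5.85% of kept barcodes as doublets, which were kept. Thinning drew 2000 UMIs per barcode with seed 1. The calculations were tested on simulated data, in Python 3.11.15 with numpy 2.4.6 and scipy 1.17.1.

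Named genes are the rule genes; per treatment the 8 highest and 8 lowest ratios from 50 CPM up, leaving out predicted genes and those of mitochondria, ribosomal proteins, haemoglobin and immunoglobulin; the 12 most different each way from the other Siglech cells; up to 4 per list; and a fixed set of pDC, asparagine, glycolysis and cholesterol genes. Not all of them are printed. Alternatives changed the Siglech, gene number, cycling and mitochondrial thresholds, depth, doublets, added CPM, scaling, cell weighting and minimum CPM. The split of the members, its alternatives and 12 named genes each way, the background in cells with Xcr1 and Clec9a, and values without the 2 richest cells were added after the data were seen.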

Additional observations from a re-analysis of the deposited data

How the results depend on the processing

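The share of subset cells was lower than control in both treated libraries under every alternative run for it. After thinning, the ratio to control among kept barcodes was 0.411 at 50 µM glutamine and 0.694 with DON, and that among non-cycling Siglech cells 0.699 with DON. With at most 5% mitochondrial UMIs the ratio among kept barcodes at 50 µM was 0.260. Counts of genes 2-fold apart moved more. At 50 µM the higher genes, 20 as reported, were 50 with at least 3 of the 6 genes, 39 with 1 CPM added, 11 with median-of-ratios scaling (66 lower) and 10 with the higher minimum CPM. With DON the 1 higher gene became 0 with at least 3 Siglech UMIs, with Mki67 and Top2a at 0, with equal cell weights and with the higher minimum, and 10 with at least 3 of the 6 genes. The 7 lower became 11 with at least 3 of the 6 genes, 11 with median-of-ratios scaling and 15 with 1 CPM added. Thinning, which leaves few UMIs per gene, gave 440 higher and 269 lower at 50 µM and 164 higher and 182 lower with DON. Against cells with none of the 6 genes, the higher genes were 7 with at least 3 Siglech UMIs, 7 without doublets, 14 with at least 3 of the 6 genes and 1 with the higher minimum. The lower were 17 with at least 3 of the 6 genes, 4 with Mki67 and Top2a at 0 and 4 with the higher minimum. Between the 2 kinds of members, thinning gave 57 higher and 82 lower, and the higher genes were 62 without doublets and 54 with 1 CPM added. These 4 values are from alternatives chosen after seeing the data.

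Among the values that changed sign on the log2 scale after thinning was the median of lymphoid progenitor genes at 50 µM (-0.026). Others were Aldoc (0.35), Naaa (0.89) and Cx3cr1 (-0.44) with DON, and Vmp1 at 50 µM (-0.45). Further list medians changed sign under some alternatives. With DON, pDC transcription factors went from 0.03 to as low as -0.15, and mature dendritic cell markers from -0.39 to as high as 0.099. The pDC identity genes at 50 µM went from 0.11 to as low as -0.044. Apoe with DON was at 0.10 with at least 3 of the 6 genes. The ratio for Ngp, DON against control in subset cells, was -2.27 with Mki67 and Top2a at 0, -0.49 with equal cell weights and -0.062 without its 2 richest cells. The cause of these changes was not tested. No paired analysis was possible because each condition is 1 library, and no replicate could be left out.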
